A study of Saccharomyces cerevisiae with 8 samples.

Results

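The nucleosome map of *psh1Δ 3Flag-CSE4* cells was set against that of *3Flag-CSE4* cells, using the lists of nucleosome-sized peaks called in the input chromatin of each strain. The lists held 31256 peaks on the nuclear chromosomes in *psh1Δ 3Flag-CSE4* and 39939 in *3Flag-CSE4*, and they came from 2 of the 8 libraries of the series. A *3Flag-CSE4* peak overlapped by at least 1 bp by a *psh1Δ 3Flag-CSE4* peak was called kept, and the others were called missing. A *psh1Δ 3Flag-CSE4* peak with no *3Flag-CSE4* peak overlapping it was called new. Where 1 peak of each list overlapped only the other, the distance between their centres gave the shift.

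The series was made to find where CENP-A Cse4, the centromeric variant of histone H3, goes when its level is raised or its breakdown is blocked, and the input libraries map all nucleosomes. The *psh1Δ 3Flag-CSE4* strain, labelled psh1 3Flag-CSE4, carried *psh1::KAN*, and *3Flag-CSE4* carried the wild-type *PSH1* gene. Both were W303 strains in which the endogenous *CSE4* gene was deleted and Flag-tagged *CSE4* under its own promoter stood at *URA3*, so neither is an unmodified wild type. Asynchronous cultures in lactic acid medium received 2% galactose for 2 h, although neither strain has a *GAL*-driven copy of *CSE4*, and cells were then fixed with formaldehyde and the chromatin digested with MNase. The inputs of *psh1Δ pGAL-3Flag-CSE4* and *pGAL-3Flag-CSE4*, which carry such a copy as well, are given below only beside the comparison, with 18902 and 39777 nuclear peaks. The *pGAL-3Flag-CSE4* input has *PSH1* and a list about as long as the *3Flag-CSE4* input, and was compared with the same *3Flag-CSE4* map.

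Psh1 is the E3 ubiquitin ligase that marks Cse4 for breakdown by the proteasome. Micrococcal nuclease (MNase) cuts the linker DNA between nucleosomes, so that the fragments that survive show where nucleosomes lie. In budding yeast most genes begin with a well placed +1 nucleosome next to a nucleosome-depleted region, and the nucleosomes further into the gene are placed less exactly. Runs of A or T stiffen DNA and are common in promoters, where they disfavour nucleosomes.

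To show what kind of DNA lay under these peaks, 8 peaks of 81 bp from outside chromosome XI are printed, 2 from each of 4 sets. Within each set, 1 has a run of at least 6 A or T and 1 has none, and both have the A+T content of the set's median. The sequences are those of the plus strand of RefSeq's copy of the R64 reference, 5′ to 3′, and capitals mark the runs.
Missing promoter nucleosome, 117 bp before *FUN12* (translation initiation factor 5B), chrI:76270-76350: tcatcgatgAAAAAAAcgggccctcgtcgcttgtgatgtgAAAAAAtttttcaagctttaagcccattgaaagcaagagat
Missing promoter nucleosome, 125 bp before *DBP6* (an RNA helicase of ribosome assembly), chrXIV:695430-695510: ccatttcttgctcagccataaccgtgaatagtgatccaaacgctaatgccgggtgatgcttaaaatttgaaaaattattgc
Kept and unmoved promoter nucleosome, 185 bp before *MCO10*, chrXV:371460-371540: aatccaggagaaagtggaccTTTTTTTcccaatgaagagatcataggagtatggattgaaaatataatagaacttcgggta
Kept and unmoved promoter nucleosome, 123 bp before *CDC34* (a ubiquitin-conjugating enzyme), chrIV:562410-562490: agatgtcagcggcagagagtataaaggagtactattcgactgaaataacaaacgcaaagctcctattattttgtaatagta
Missing nucleosome inside *TDP1* (a DNA repair phosphodiesterase), chrII:669740-669820: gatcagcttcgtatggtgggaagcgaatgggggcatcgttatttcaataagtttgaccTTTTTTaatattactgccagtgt
Missing nucleosome inside *OAF1* (an oleate-activated transcription factor), chrI:50030-50110: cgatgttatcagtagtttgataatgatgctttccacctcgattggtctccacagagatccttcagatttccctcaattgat
New peak inside *PRP8* (a core spliceosome protein), chrVIII:435870-435950: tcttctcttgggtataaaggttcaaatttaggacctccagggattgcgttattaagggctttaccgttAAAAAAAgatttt
New peak inside *CDC53* (the cullin of SCF ubiquitin ligases), chrIV:224800-224880: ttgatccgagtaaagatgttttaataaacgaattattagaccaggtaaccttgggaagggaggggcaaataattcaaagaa
The median A+T content of the 81 bp peaks was 60.5% in missing and 64.2% in kept and unmoved promoter peaks centred over 100 and up to 250 bp before a reading frame. In gene interiors, over 500 bp from either end, it was 59.3% in missing peaks and 64.2% in new peaks. A run of at least 6 A or T was present in 29 of 67 missing and 14 of 43 kept and unmoved promoter peaks. In gene interiors it was present in 72 of 673 missing peaks and in 8 of 58 new ones.

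The labels were first checked at the deleted gene. *PSH1* (YOL054W, chromosome XV, 228614 to 229834) was overlapped by 0 peaks in *psh1Δ 3Flag-CSE4* and by 8 peaks of 81 to 121 bp in *3Flag-CSE4*. The nearest *psh1Δ 3Flag-CSE4* peaks lay 394 bp upstream and 106 bp downstream of the gene. The *CSE4* reading frame, deleted at its own place but present at *URA3*, held 1 peak against 1, *URA3* held 2 against 2 and *LEU2* 1 against 1. *SLP1*, which was not altered in these strains, had 3 peaks centred in its reading frame against 8. *GAL1* and *GAL10* held 0 peaks in either list.

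Both lists lack peak heights and read counts, and each strain had 1 input library, so no difference could be set against a spread between replicates. Per the study's account the *psh1Δ 3Flag-CSE4* input had fewer reads and shorter fragments than the *3Flag-CSE4* input, both inputs with the *GAL* copy were sequenced more deeply than either, the *pGAL-3Flag-CSE4* input most, and strain, depth and digestion cannot be told apart in 1 library each. Intervals are 95% Wilson intervals for shares and Newcombe intervals for differences, and cover counting error only. Outside chromosome XI, median peak width was 81 bp in *psh1Δ 3Flag-CSE4* and 91 bp in *3Flag-CSE4*, and peaks covered 20.8% against 33.2% of the DNA. Chromosome XI stood apart in *psh1Δ 3Flag-CSE4*, with 67.7% of its DNA under peaks against 35.9% in *3Flag-CSE4*, and is therefore reported on its own. The *psh1Δ pGAL-3Flag-CSE4* input had the same split (53.5% of chromosome XI, 10.9% of the other 15 chromosomes), and the *pGAL-3Flag-CSE4* input did not (35.5% and 32.8%).

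The first question was how much of the *3Flag-CSE4* map was still found. Of the 39939 nucleosomes, 27760 were kept in *psh1Δ 3Flag-CSE4*, which is 69.5% (69.1 to 69.96), and 12179 (30.5%) were missing. Outside chromosome XI 12170 of 37648 were missing (32.3%), and on chromosome XI 9 of 2291 (0.393%). From the *pGAL-3Flag-CSE4* input 5641 of the same 39939 nucleosomes were missing (14.1%). New peaks numbered 3264 of 31256 (10.4%), and 2701 of 29085 (9.29%) outside chromosome XI. Missing peaks were the narrower ones in the *3Flag-CSE4* list, with a median width of 81 bp against 91 bp for kept peaks outside chromosome XI. Peaks of 41 or 51 bp made up 20.2% of the missing and 4.46% of the kept nucleosomes. New peaks were narrow too, with a median of 71 bp against 81 bp for *psh1Δ 3Flag-CSE4* peaks that had a counterpart.

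Chromosomes other than XI differed in how much of their map was kept. The kept share was lowest on chromosome XII, at 58.2% (56.5 to 59.9) of 3283 nucleosomes, and highest on chromosome VIII, at 77.8% (75.9 to 79.6) of 1909. Chromosome III followed with 75.9% (73.2 to 78.4), and its interval overlaps that of chromosome VIII. The other 12 lay between 64.9% on chromosome XIII and 73.1% on chromosome I. The same 15 chromosomes spanned a narrower band in the *pGAL-3Flag-CSE4* input, between 83.3% on chromosome VI and 87.5% on chromosome VIII. In bins of 20 kb with at least 20 nucleosomes, the kept share had a median of 67.7% over 557 bins and ranged from 33.3% to 88.7%. The lowest bin, chromosome XII from 440001 to 460000, held 12 *psh1Δ 3Flag-CSE4* peaks against 27 *3Flag-CSE4* peaks. It reaches into the ribosomal DNA repeats, where reads are hard to place, and 3 of the 5 lowest bins were on chromosome XII.

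**Figure D1:**
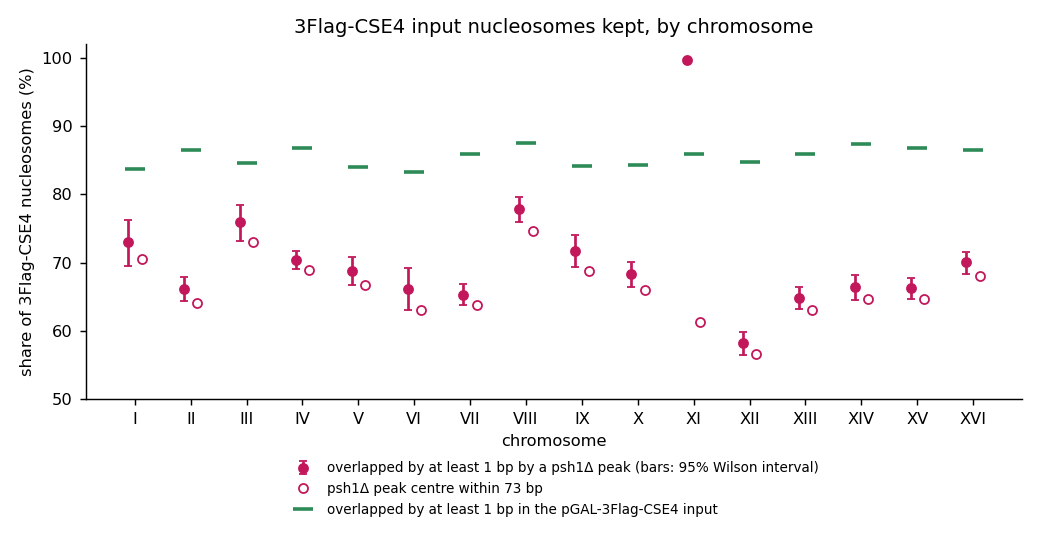
Share of *3Flag-CSE4* input nucleosomes (y axis, %, starting at 50) on each chromosome (x axis) that were overlapped by a *psh1Δ 3Flag-CSE4* peak by at least 1 bp (filled points, bars are 95% Wilson intervals), that had a *psh1Δ 3Flag-CSE4* peak centre within 73 bp (open points), or that were overlapped in the *pGAL-3Flag-CSE4* input (green dashes). Chromosome XI stands at 99.6% by overlap and 61.3% by centres, and chromosome XII is lowest by either rule at 58.2% and 56.7%.

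The share of nucleosomes kept differed widely with their place in the gene. Outside chromosome XI, nucleosomes in promoters (centre outside genes, within 500 bp upstream of a reading frame) were kept in 81.7% (80.7 to 82.6) of 6896 cases, and those at 3′ ends (within 500 bp downstream) in 82.1% (80.98 to 83.1) of 4981. Of the 8639 nucleosomes in gene interiors, over 500 bp from either end, 46.9% (45.8 to 47.9) were kept. The difference from the interior was 34.8 percentage points (33.37 to 36.2) for promoters and 35.2 (33.7 to 36.7) for 3′ ends. Promoters that are not also a 3′ end and 3′ ends that are not also a promoter differed by -1.57 points, with an interval of -3.63 to 0.57 that includes 0. Tandem intergenic regions, which are both, had 81.2%. Promoters, 3′ ends and interiors stood at 95.8%, 96.4% and 73.4% in the *pGAL-3Flag-CSE4* input, so that interiors were lowest there as well.

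Within genes the share was 76.3% (75.4 to 77.2) in the first 500 bp, 46.9% in the interior and 62.3% (61.3 to 63.4) in the last 500 bp. Long genes also kept less, and the share by gene length was not split by place in the gene. Reading frames of up to 500 bp kept 77.8% of 1012 nucleosomes and those over 4000 bp 56.1% of 2237. Peaks covered 10.2% of interior DNA in *psh1Δ 3Flag-CSE4* against 26.6% in *3Flag-CSE4*, and 30.04% against 34.4% of promoter DNA.

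The kept share differed with peak width, so promoters and interiors were compared at like widths. Median width was 91 bp in both. Among the narrowest *3Flag-CSE4* peaks, of 41 or 51 bp, 50.4% were kept in promoters and 21.5% in interiors. At 81 or 91 bp the shares were 83.2% and 49.3%, and at 101 to 121 bp 95.1% and 63.0%. Promoter nucleosomes were thus kept more often in each width class shown. Base composition moved with the result as well. Over all nucleosomes outside chromosome XI, 63.5% (60.1 to 66.8) were kept where the 147 bp around the centre held under 50% A+T, 56.5% at 50 to 55%, 59.3% at 55 to 60% and 86.2% at 70% or more, so that the share was lowest at 50 to 55% and not at the lowest A+T. Between 60 and 65% A+T, the kept share was 82.3% in promoters and 50.96% in interiors. The part of width and composition in the kept share was not tested.

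Counted from the start of the reading frame, the order of the nucleosomes was visible in the kept share. In genes of at least 1000 bp outside chromosome XI with a peak centre within 75 bp of the start, that peak was taken as +1. The +1 nucleosome was kept in 92.2% (91.1 to 93.1) of 2632 genes, and the next ones in 77.1% (+2), 72.2% (+3), 65.2% (+4) and 58.5% (+5). The +6 nucleosome had the lowest share, 54.1% (50.3 to 57.9) of 656, and its interval overlaps those of +7 (56.4%) and +8 (59.0%). The *pGAL-3Flag-CSE4* input overlapped 97.5% at +1 and 84.4% at +5. The −1 nucleosome, the first peak upstream of +1, was kept in 81.03% (79.5 to 82.5) of 2520 genes against 96.7% in the *pGAL-3Flag-CSE4* input.

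Upstream of the reading frame the profile of kept nucleosomes had a trough. Nucleosomes centred at -200 to -151 bp from the start were kept in 66.4% (63.5 to 69.2) of 1062 cases and those at -150 to -101 bp in 67.7% (64.3 to 70.99) of 747. On either side the share was higher, with 88.7% (86.97 to 90.3) at -300 to -251 bp and 92.9% (91.5 to 94.0) in the last 50 bp before the frame. The *pGAL-3Flag-CSE4* input overlapped 95.8% and 96.7% of the nucleosomes in the 2 bins of the trough. Upstream of the start, *3Flag-CSE4* peaks were fewest in the next bin, at -100 to -51 bp, where 90.9% of 689 were kept.

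Runs of A or T moved with the loss in this stretch. Of the promoter nucleosomes centred over 100 and up to 200 bp before a reading frame, 795 had a run of at least 6 A or at least 6 T on the plus strand within the 147 bp around the centre, and 734 had none. With a run 60.1% (56.7 to 63.5) were kept in *psh1Δ 3Flag-CSE4*, and without one 75.1% (71.8 to 78.1), a difference of -14.9 points (-19.5 to -10.3). The *pGAL-3Flag-CSE4* input overlapped 97.1% and 95.5% of the same 2 sets, and the *psh1Δ pGAL-3Flag-CSE4* input 72.5% and 74.8%. Nearer to the frame, at up to 100 bp, the difference was -2.87 points (-5.37 to -0.55), and over 200 and up to 300 bp before it was -8.27 points (-12.3 to -4.33). In gene interiors the sign was the other way, with 52.3% kept with a run and 45.5% without, a difference of 6.81 points (4.19 to 9.43). The missing promoter nucleosomes contained a run in 55.1% of 1265 cases and the kept ones in 40.2% of 5631, although median A+T was lower in the missing ones (61.9% against 63.9%). Of all 147 bp windows taken every 500 bp outside chromosome XI, 27.7% held such a run. Median width was 81 bp for the nucleosomes with a run in the stretch of 100 to 200 bp and 91 bp for those without, and the part of width in this difference was not tested.

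**Figure D2:**
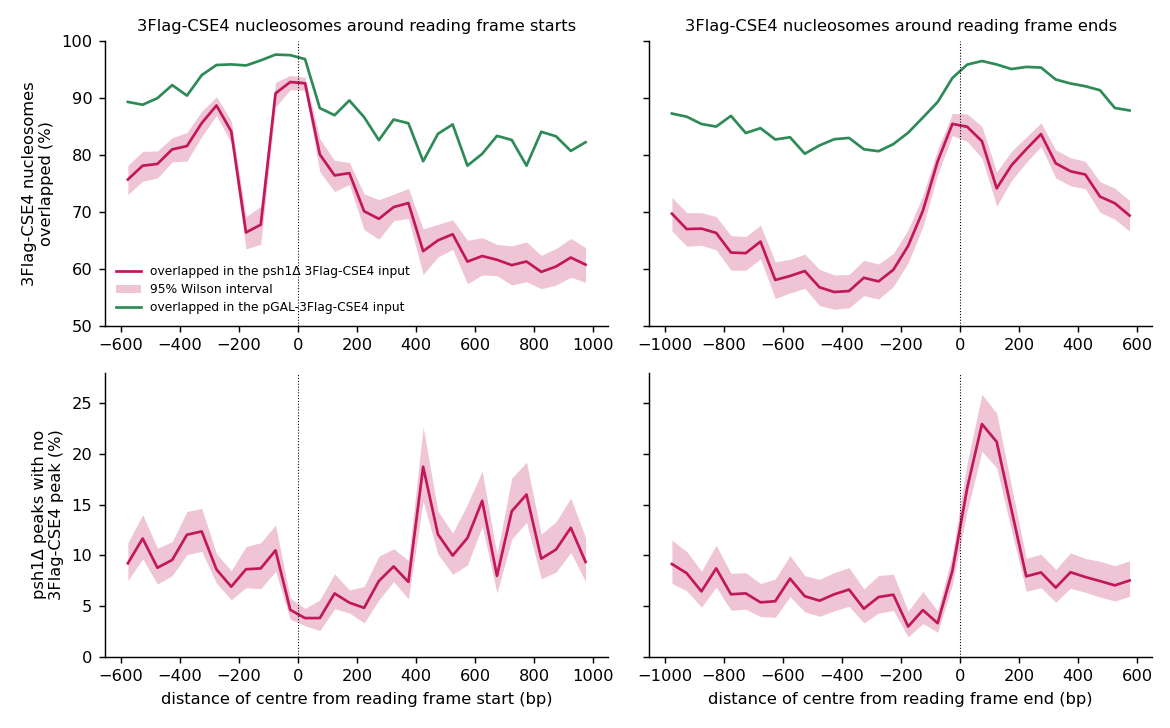
Upper panels show the share of *3Flag-CSE4* nucleosomes (y axis, %, starting at 50) overlapped in the *psh1Δ 3Flag-CSE4* input (pink, band is the 95% Wilson interval) and in the *pGAL-3Flag-CSE4* input (green), by distance of the centre from protein-coding reading frame starts (left) and ends (right) in bins of 50 bp, chromosome XI left out. Lower panels show the share of *psh1Δ 3Flag-CSE4* peaks that were new, which reaches 22.9% at 50 to 99 bp past the end, while the upper left panel dips to 66.4% before the start.

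New peaks clustered just past the ends of genes. At 50 to 99 bp and 100 to 149 bp downstream of a reading frame, new peaks made up 22.9% and 21.2% of those in *psh1Δ 3Flag-CSE4*, against 9.29% of all its peaks outside chromosome XI. In the first 50 bp of reading frames 3.81% were new. Of the 2701 new peaks, 763 (28.2%) were at 3′ ends, 748 (27.7%) in promoters and 608 (22.5%) in gene interiors, where tandem regions count under the first and second. New peaks had a median A+T content of 67.3% over 147 bp, against 61.9% for *psh1Δ 3Flag-CSE4* peaks with a counterpart. At 70% A+T or more, 810 of 2417 *psh1Δ 3Flag-CSE4* peaks were new (33.5%), and at 55 to 60% 161 of 7546 (2.13%). The *pGAL-3Flag-CSE4* input, which has *PSH1*, overlapped 1917 of the 2701 new peaks (71.0%). It overlapped 94.6% of the *psh1Δ 3Flag-CSE4* peaks with a counterpart. Most new peaks were thus absent from the *3Flag-CSE4* list but not particular to *psh1Δ 3Flag-CSE4*.

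Small features outside chromosome XI were counted on their own. Over all peaks there 67.7% were kept, 9.29% were new and 85.9% were overlapped in the *pGAL-3Flag-CSE4* input. Outside genes the kept share was 81.2%, the new share 13.3% and the *pGAL-3Flag-CSE4* share 95.1%. Of all nucleosomes 73.4% lay in genes, against 20.8% at long terminal repeats, 26.3% at origins, 46.6% at snoRNA genes and 51.1% around tRNA genes. Around tRNA genes, with 200 bp on each side, there were 455 *psh1Δ 3Flag-CSE4* peaks against 380 *3Flag-CSE4* peaks. There 89.2% (85.7 to 91.9) of the *3Flag-CSE4* nucleosomes were kept, close to the 91.1% in the *pGAL-3Flag-CSE4* input, and new peaks made up 25.9% of the *psh1Δ 3Flag-CSE4* calls. Around the long terminal repeats of Ty elements there were 548 peaks against 404, with 91.3% (88.2 to 93.7) kept and 31.9% new. Origins of replication had 275 peaks against 281, with 85.8% (81.2 to 89.4) kept. At snoRNA genes, which guide RNA modification, 68 peaks stood against 73, and 67.1% (55.7 to 76.8) were kept. This is close to the share over all nucleosomes and below that outside genes, while the *pGAL-3Flag-CSE4* input overlapped 97.3%. Copies of tRNA genes and repeats share sequence, so that the assignment of reads among them is uncertain.

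Kept nucleosomes in 1-to-1 pairs lay close to their *3Flag-CSE4* position, but the pairing rule limits how far apart they can lie. A pair must overlap, so a nucleosome that moved beyond overlap is counted as missing and new. Peaks were reported on a grid of 10 bp, so centres move in steps of 5 bp. Of 25816 nuclear 1-to-1 pairs, 6645 (25.7%) had the same centre, 15933 (61.7%) were within 5 bp and 1260 (4.88%, 4.62 to 5.15) had shifted by over 30 bp. Outside chromosome XI, 61.8% of pairs in *psh1Δ 3Flag-CSE4* were within 5 bp and 4.72% over 30 bp, and 75.9% and 2.93% of pairs in the *pGAL-3Flag-CSE4* input. Shifts over 30 bp were rarest in the first 500 bp of genes, at 0.558% (0.403 to 0.771) of 6455 pairs. They made up 2.91% of 3028 pairs in promoters that are not also a 3′ end, 3.00% of 2534 in tandem regions, 8.77% in the last 500 bp of genes and 9.99% (9.07 to 10.99) in interiors. Wide *3Flag-CSE4* peaks, of 131 bp or more, gave 747 of the 1158 large shifts outside chromosome XI and had one in 43.3% of 1724 pairs. A wide peak can span more than 1 nucleosome.

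The small shifts had a direction. Among nucleosomes centred in the first 500 bp of 1 gene, 4393 of 6451 pairs had different centres. In 3563 of these, 81.1% (79.9 to 82.2), the *psh1Δ 3Flag-CSE4* centre lay towards the start of the gene, and the mean shift along the gene over all pairs was -3.76 bp, where negative is towards the start. Of the moved centres in the *pGAL-3Flag-CSE4* input, 42.2% (40.7 to 43.7) in this class lay towards the start, with a mean of 0.43 bp. In the *psh1Δ pGAL-3Flag-CSE4* input it was 52.8% (51.03 to 54.6), with a mean of -0.15 bp. In gene interiors 67.3% (65.7 to 68.9) of the moved centres in *psh1Δ 3Flag-CSE4* lay towards the start, with a mean of -2.85 bp. The *psh1Δ pGAL-3Flag-CSE4* input had 43.4% (40.4 to 46.5) and a mean of 4.42 bp in interiors, which is the opposite direction, and the *pGAL-3Flag-CSE4* input had 53.8% and -0.29 bp.

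In the last 500 bp of genes the direction was the other way. There 68.3% (66.9 to 69.8) of 3872 moved centres in *psh1Δ 3Flag-CSE4* lay towards the end of the gene, with a mean shift of 6.33 bp over 4684 pairs. In this class the other inputs had the same direction, with 78.5% (76.3 to 80.7) and a mean of 9.64 bp in the *psh1Δ pGAL-3Flag-CSE4* input and 62.2% (60.8 to 63.7) and 2.98 bp in the *pGAL-3Flag-CSE4* input. These means are below the 10 bp grid of the lists and describe many genes together, not the move of 1 nucleosome. The paired peaks were also narrower in *psh1Δ 3Flag-CSE4*, by a median of 10 bp, in 62.9% of the pairs outside chromosome XI. The part of peak width in the direction of the shift was not tested.

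**Figure D3:**
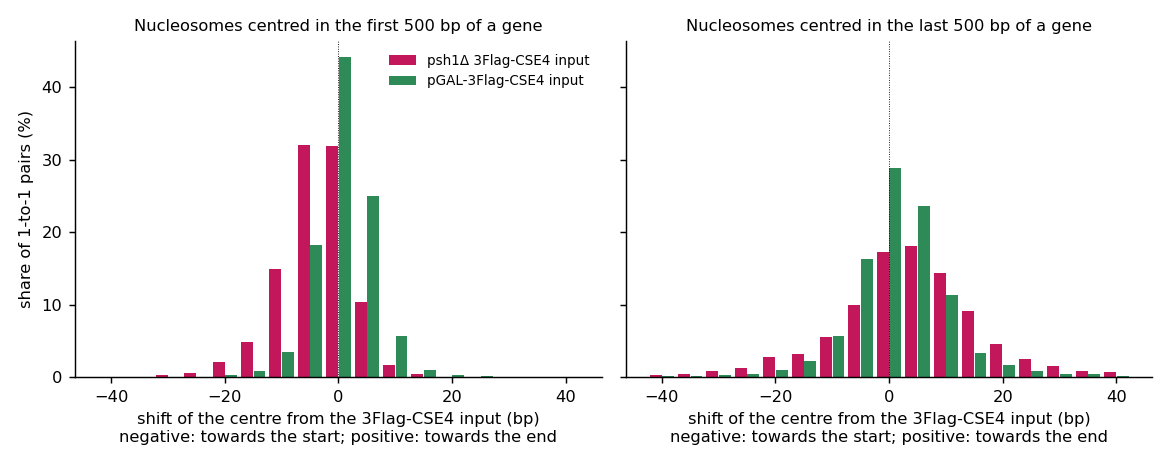
Share of 1-to-1 pairs (y axis, %) by shift of the peak centre from the *3Flag-CSE4* input (x axis, bp, in steps of 5, negative towards the start of the gene) in the *psh1Δ 3Flag-CSE4* input (pink) and the *pGAL-3Flag-CSE4* input (green), for nucleosomes centred in the first 500 bp (left) and last 500 bp (right) of 1 gene outside chromosome XI. On the left the pink bars lie mostly at or below 0, where 81.1% of the moved centres are, and on the right both lean towards positive values.

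Where both nucleosomes beside the nucleosome-depleted region were kept in 1-to-1 pairs, the distance across it was nearly the same. In 1858 genes with both the −1 and the +1 nucleosome in 1-to-1 pairs, the gap between the peak edges had a median of 149 bp in *psh1Δ 3Flag-CSE4* and 139 bp in *3Flag-CSE4*. Between peak centres, which do not depend on peak width in the same way, the medians were 240 and 235 bp, and the median change per gene was 0 bp with a mean of 0.54 ± 14.5 bp (SD over genes). The change was within 10 bp in 83.7% of the genes. It was a widening of over 30 bp in 52 genes (2.80%) and a narrowing of over 30 bp in 22 (1.18%). Genes in which either nucleosome was missing are not in these numbers. Paired peaks must overlap, so the rule itself limits how far this distance could change.

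Missing nucleosomes stood alone or in runs of neighbours, and most runs were short. The 12179 missing nucleosomes formed 6275 runs, of which 3463 held 1 nucleosome, 408 held 5 or more and 21 held 10 or more. The runs of 5 or more held 2483 nucleosomes. Whether the runs were longer than scattered loss would give was not tested. The longest run lay in *REA1* (YLR106C, chromosome XII), which encodes a very large ATPase that remodels pre-60S ribosomes. There 29 successive *3Flag-CSE4* nucleosomes, from 352430 to 362150, had no counterpart in *psh1Δ 3Flag-CSE4*, while 26 of them were overlapped in the *pGAL-3Flag-CSE4* input. Over the whole *REA1* reading frame 6 *psh1Δ 3Flag-CSE4* peaks stood against 37 *3Flag-CSE4* peaks.

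The next longest runs also lay over long genes. In *ACC1*, the acetyl-CoA carboxylase of fatty acid synthesis, a run of 13 was missing, but the *pGAL-3Flag-CSE4* input overlapped only 1 of these. In *CIN1* and *MNE1*, convergent genes for a tubulin folding factor and a mitochondrial splicing factor, 13 were missing and 10 of them overlapped in the *pGAL-3Flag-CSE4* input. In *RIA1*, a GTPase that releases Tif6 from the 60S subunit, the numbers were 13 and 10. A run of 12 over *YLR152C* and *ACS2*, an acetyl-CoA synthetase, had 8 overlapped in the *pGAL-3Flag-CSE4* input, and lies in the bin of chromosome XII with the lowest kept share.

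Of 1182 protein-coding genes outside chromosome XI with at least 8 *3Flag-CSE4* nucleosomes centred in the reading frame, the median kept share was 62.5%, 5 genes kept 0 and 64 kept all. With 32.3% of nucleosomes missing outside chromosome XI, genes at either end of this range are the exception. *PHO81* and *PHO84*, a cyclin-dependent kinase inhibitor and the high-affinity phosphate transporter of the phosphate pathway, kept 0 of 10 and 0 of 9. Their *psh1Δ 3Flag-CSE4* peaks numbered 1 and 0. *FCP1*, the phosphatase of the RNA polymerase II tail, held 0 peaks against 10. *ALR2*, a magnesium transporter gene with a close paralog, held 0 against 8, and *MNL2* held 2 against 10, neither of them overlapping. Of the same nucleosomes, the *pGAL-3Flag-CSE4* input overlapped 7 each in *PHO81*, *PHO84*, *FCP1* and *MNL2*, and 6 in *ALR2*. *FKS1*, the cell wall glucan synthase, kept 1 of 14, *ACC1* 1 of 14, *GID11* and *SEG1* 1 of 11 each, and *UBP5* 1 of 10.

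At the other end, *RAD50*, a subunit of the MRX complex in DNA repair, kept 17 of 17 nucleosomes. It held 19 *psh1Δ 3Flag-CSE4* peaks, and 0 of them were new. Its wide *3Flag-CSE4* peaks at 2780 to 3340 and 3530 to 4300 bp from the start each overlapped several *psh1Δ 3Flag-CSE4* peaks. These counts are thus not a match of single nucleosomes throughout. *BPT1* and *AUS1*, both transporters of the ABC family, kept 14 of 14, with 19 and 22 *psh1Δ 3Flag-CSE4* peaks. *SMC3*, a cohesin subunit, kept 13 of 13. *PDR3*, a drug resistance transcription factor, *ISW1*, a chromatin remodelling ATPase, *CWH41*, a glucosidase, and *SOV1* kept 12 of 12 each, and *SPC72* of the spindle pole body and *POL12* of DNA polymerase alpha 11 of 11. *RAD50* had 17 of 17 overlapped in the *pGAL-3Flag-CSE4* input as well. *SAP4*, a phosphatase regulator whose promoter the study assayed, kept 10 of 13, and its 12 *psh1Δ 3Flag-CSE4* peaks included 2 new ones.

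**Figure D4:**
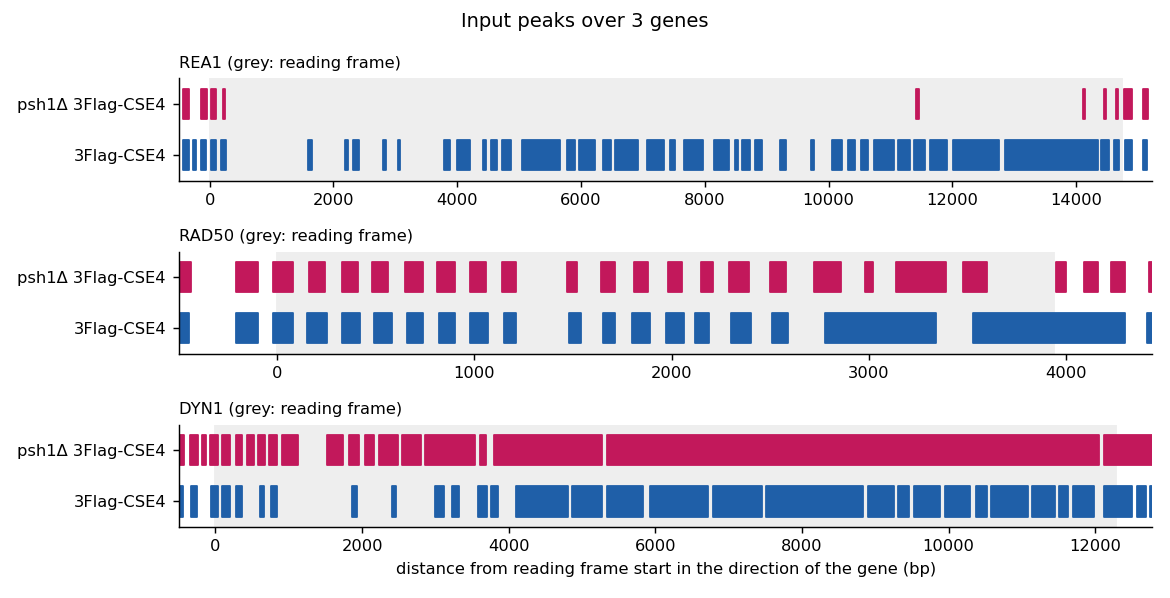
Peaks of the *psh1Δ 3Flag-CSE4* input (pink, upper row) and of the *3Flag-CSE4* input (blue, lower row) over *REA1*, *RAD50* and *DYN1*, by distance from the reading frame start in the direction of the gene (x axis, bp, with the reading frame in grey). *REA1* shows 6 peaks against 37 centred in the frame, *RAD50* 19 against 17, and *DYN1* on chromosome XI 15 against 25, of which 1 pink peak spans 6711 bp.

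Genes that hold most new peaks were all on chromosome XI (*MLP1*, *MNN4*, *RGT1*, *NUP120* and *GFA1*, with 7 to 11 each). Outside it, in a ranking added after the data were seen, *SWI4*, a G1 transcription factor, *VMR1*, a vacuolar transporter, *MYO1*, the myosin of cytokinesis, *SIP3* and *ASE1*, a spindle midzone protein, held 5 new peaks each. *ASE1* had 8 *psh1Δ 3Flag-CSE4* peaks against 3.

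Functional groups of genes were described by the nucleosomes in their reading frames, outside chromosome XI. All protein-coding genes kept 62.7% of 27459 nucleosomes, and the *pGAL-3Flag-CSE4* input overlapped 82.5%. Genes for inner kinetochore proteins, which assemble on the Cse4 nucleosome, kept 63 of 90 (95% interval 59.9 to 78.5%), and 7 of the 16 genes kept all. *CHL4*, *CNN1* and *OKP1* kept 6 of 6 each, and *IML3* and *AME1* kept 1 of 4 each. Genes for the turnover and deposition of Cse4 and other histones kept 90 of 136 (66.2%, 57.9 to 73.6). Among them *HIR3* of the HIR histone chaperone kept 16 of 17, *SPT16* of the FACT complex 4 of 4, and the ubiquitin ligase gene *UBR1* 3 of 10. The list includes the deleted *PSH1* with 0 of 7. Chromatin remodeller genes kept 193 of 290 (66.6%, 60.9 to 71.7), among them *SNF5* with 3 of 10, *INO80* with 4 of 11 and *ISW1* with 12 of 12. The intervals of these 3 lists include the 62.7% of all genes.

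Glycolytic genes held 12 peaks in *psh1Δ 3Flag-CSE4* against 31 in *3Flag-CSE4*. They kept 10 of 31 (32.3%, 18.6 to 49.9), below the share of all genes. The 31 lay in 11 genes, and 8 of the 19 genes had no *3Flag-CSE4* nucleosome. As in the other lists, the interval counts nucleosomes as independent, although several lie in the same gene. The *pGAL-3Flag-CSE4* input overlapped 12 of the 31 (38.7%, 23.7 to 56.2), also below its share over all genes. *HXK1*, a hexokinase, kept 1 of 5 and *PDC6*, a pyruvate decarboxylase, 4 of 8. Cytosolic ribosomal protein genes held 58 peaks in *psh1Δ 3Flag-CSE4* against 68 in *3Flag-CSE4*. They kept 32 of the 68 (47.1%, 35.7 to 58.8), and 62 of the 68 (91.2%, 82.1 to 95.9) were overlapped in the *pGAL-3Flag-CSE4* input. Of the 58 *psh1Δ 3Flag-CSE4* peaks 26 were new, against 1389 of 19317 over all protein-coding genes. But 78 of the 132 genes had no *3Flag-CSE4* nucleosome, against 632 of 5684 over all protein-coding genes. In such a gene a *psh1Δ 3Flag-CSE4* peak has little to overlap and is mostly counted as new. Of the 54 genes in this list with a nucleosome, 22 kept none and 25 kept all. *RPL13A* and *RPS16B* kept 1 of 3 each, with 2 and 3 overlapped in the *pGAL-3Flag-CSE4* input. The paralogs of this family share sequence, so that reads can be hard to place between them.

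Genes of gluconeogenesis and of the use of lactate, the carbon source of the medium, kept 30 of 60 (95% interval 37.7 to 62.3%), against 38 (63.3%) in the *pGAL-3Flag-CSE4* input. *IDP2*, an isocitrate dehydrogenase, and *MDH2*, a malate dehydrogenase, kept 1 of 7 each and *MLS1*, malate synthase, 7 of 9. Galactose genes kept 13 of 24 (54.2%, 35.1 to 72.1), with *GAL4*, their activator, at 8 of 13. Heat shock chaperone genes kept 35 of 58 (60.3%, 47.5 to 71.9), and here the *pGAL-3Flag-CSE4* input overlapped fewer, 23 (39.7%, 28.1 to 52.5). Core histone genes held 6 peaks against 5 and kept 4 of the 5. *HTZ1*, the H2A.Z gene, held 0 peaks in either list, and the linker histone gene *HHO1* kept 1 of 2.

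Near centromeres the map was kept somewhat more often than elsewhere. Outside chromosome XI, 73.4% (70.8 to 75.8) of the 1169 nucleosomes within 10 kb of a centromere were kept, 5.91 points (3.25 to 8.41) above the rest. The share stayed near this level out to 50 kb (73.4% at 20 to 50 kb) and was 70.3% at 50 to 100 kb, 69.5% at 100 to 200 kb and 64.7% beyond 200 kb. The *pGAL-3Flag-CSE4* input overlapped 85.4% within 10 kb and 86.5% beyond 200 kb. The trend lay mainly in gene interiors, where 54.5% were kept within 50 kb, 50.9% at 50 to 200 kb and 42.1% farther out, a difference of 12.4 points (9.30 to 15.5) between the first and the last. In promoters the same difference was 2.53 points, with an interval of -0.25 to 5.12 that includes 0. Chromosome XII, with the lowest kept share, has most of its length beyond 200 kb of its centromere. The part of this distance in its kept share was not tested.

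Most of the *3Flag-CSE4* peaks nearest to the centromeres were kept. On the 16 chromosomes, 30 of the 32 *3Flag-CSE4* input peaks next to a centromere were kept, and the exceptions were the right flank of *CEN9* and the left flank of *CEN14*. Of all 111 *3Flag-CSE4* nucleosomes within 1 kb of a centromere, 86 were kept (77.5%, 68.9 to 84.3). A peak lay over *CEN5* in *3Flag-CSE4* only, and over *CEN11* in *psh1Δ 3Flag-CSE4* only. The distance from the centromere to the next peak centre had a median of 175 bp in *psh1Δ 3Flag-CSE4* and 184 bp in *3Flag-CSE4*. In 20 of the 32 cases these distances agreed within 10 bp, in 10 the *psh1Δ 3Flag-CSE4* peak was nearer and in 2 it was farther. On the left of *CEN12* it lay at 178 bp against 473 bp, and on the left of *CEN4* at 131 bp against 376 bp, and in both places the *3Flag-CSE4* peak was kept as well. Of the 44 *3Flag-CSE4* input nucleosomes under a Cse4 ChIP peak of *psh1Δ 3Flag-CSE4*, 42 were kept. Outside chromosome XI it was 29 of 30, and the other 14 lie on chromosome XI, where this rule keeps 99.6%. These nucleosomes were picked by peaks called in *psh1Δ 3Flag-CSE4* itself. Their share therefore cannot be set against the 67.7% of all nucleosomes outside chromosome XI.

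Chromosome ends as a whole had a kept share near that of the rest, but a different mix of places. Within 20 kb of an end 41.3% of nucleosomes lay in genes, against 73.4% of all outside chromosome XI. Nucleosomes in genes were kept in 62.8% of cases and those outside genes in 81.2%. The share at ends was not split by place in the gene. Outside chromosome XI, 67.1% (64.1 to 70.01) of the 980 nucleosomes within 20 kb of an end were kept, a difference of -0.55 points (-3.59 to 2.36) from the rest. In the last 5 kb 42 of 77 were kept (54.5%, 43.5 to 65.2), and between 5 and 10 kb 142 of 191 (74.3%, 67.7 to 80.0). Genes held 18.2% of the nucleosomes in the last 5 kb. Among ends with at least 20 *3Flag-CSE4* peaks outside chromosome XI, the kept share ran from 39.2% of 51 nucleosomes at the right end of chromosome XIII and 41.2% of 34 at the left end of chromosome III to 81.1% of 74 at the left end of chromosome XV. Several ends had under 10 *3Flag-CSE4* peaks, and the sequences near chromosome ends are shared between chromosomes.

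Chromosome XI had to be read apart, because the rule for keeping gives another answer there. By 1 bp overlap 2282 of 2291 nucleosomes were kept (99.6%, 99.3 to 99.8), 31.9 points (31.3 to 32.4) more than on the other chromosomes. By the rule that a *psh1Δ 3Flag-CSE4* peak centre lies within 73 bp, 61.3% were kept on chromosome XI against 65.7% elsewhere, a difference of -4.43 points (-6.50 to -2.40). The *psh1Δ 3Flag-CSE4* peaks there were wide, with a median of 111 bp against 91 bp, and 293 of 2171 were at least 300 bp long against 67 of 2291. Outside chromosome XI this was the other way round, with 73 against 799 such peaks. A wide peak overlaps many nucleosomes at once. On chromosome XI 310 *psh1Δ 3Flag-CSE4* peaks overlapped more than 1 *3Flag-CSE4* peak, up to 13, while on the other 15 chromosomes 115 did, up to 3.

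The widest of these, of 6711 bp, lay in *DYN1*, the heavy chain of cytoplasmic dynein, and overlapped 13 *3Flag-CSE4* peaks. The next, of 4481 bp over *PUT3* and *URB1*, overlapped 13 as well, and 1 of 4331 bp over *HSL1* and *YPF1* overlapped 10. Of the 81 protein-coding genes on chromosome XI with at least 8 nucleosomes, 80 kept all, and the exception was *OXP1*, an oxoprolinase, with 8 of 9. *DYN1* kept 25 of 25 nucleosomes with 15 *psh1Δ 3Flag-CSE4* peaks, *MYO3*, a type I myosin, 15 of 15 with 13, *PXA2*, a peroxisomal ABC transporter, 15 of 15 with 9, and *SPO14*, phospholipase D, 15 of 15 with 8. Fewer peaks thus overlapped all of their nucleosomes. The pattern ran along the whole chromosome, since each of its 33 bins of 20 kb kept between 96.9% and 100%, and peaks covered 46.5% to 84.1% of each bin, against 22.0% to 53.1% in *3Flag-CSE4*.

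The 9 missing nucleosomes of chromosome XI were peaks of 41 to 71 bp, 7 of them in gene interiors. New peaks made up 25.9% of the *psh1Δ 3Flag-CSE4* peaks on this chromosome, and 221 of the 563 lay in gene interiors. *MLP1*, a nuclear pore basket protein, held 14 peaks against 8, of which 11 were new. *UTH1*, another gene assayed by the study, had 2 peaks against 0. Gene interiors, kept least often elsewhere, were covered widely on chromosome XI, with 71.6% of interior DNA under *psh1Δ 3Flag-CSE4* peaks against 32.5% under *3Flag-CSE4* peaks. In promoters the shares were 62.5% against 34.5%.

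The order of nucleosomes at gene starts remained visible on chromosome XI despite this cover. Over 318 protein-coding genes, the start position was under a peak in 78.9% of genes in *psh1Δ 3Flag-CSE4* and 59.4% in *3Flag-CSE4*. At 100 bp upstream, in the nucleosome-depleted region, the shares were 49.4% and 23.9%, and at 100 bp downstream, between +1 and +2, 46.5% and 26.7%. On the other chromosomes the start position was covered in 56.1% against 60.2% of 5681 genes, and the position 250 bp inside in 13.5% against 20.5%. The 1-to-1 pairs of chromosome XI, which leave out the merged peaks, were within 5 bp in 779 of 1277 cases, close to the share of 61.8% on the other chromosomes, and over 30 bp apart in 7.99% (6.62 to 9.60).

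**Figure D5:**
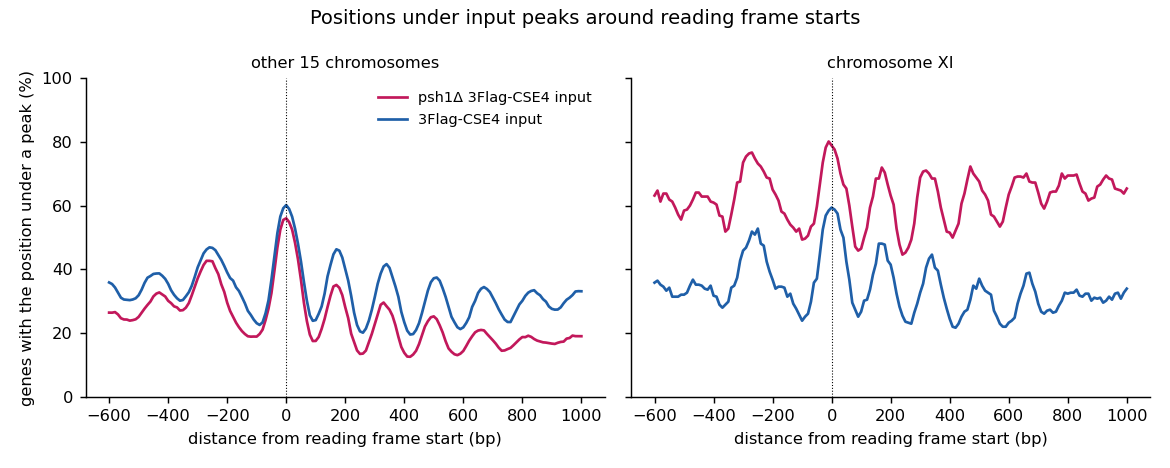
Share of protein-coding genes (y axis, %) in which a position lay under an input peak, by distance from the reading frame start (x axis, bp), in *psh1Δ 3Flag-CSE4* (pink) and *3Flag-CSE4* (blue), for the other 15 chromosomes (left, 5681 genes) and chromosome XI (right, 318 genes). On the left the pink line lies below the blue one, with 56.1% against 60.2% at the start, and on the right it lies above, with 78.9% against 59.4%, with peaks and troughs at like positions.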

How the data were processed

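Per the labels and methods, the authors mapped read pairs to sacCer3 with BWA, selected proper pairs the length of a single nucleosome and ran DANPOS2 on each input library. How DANPOS2 was set for the inputs is not given in the sources used here. In the deposited lists only the peak positions in bp were used, since the deposited score was 0 in each line. Read depth is not in the lists, so precision is that of counting peaks only.

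Groups came from the deposited genotype labels, with 1 library a group and no test between strains. Positions are in R64 (sacCer3) with annotation R64-5-1, counted from 1, with 6413 nuclear genes, 6002 of them protein-coding, and annotated ends are those of reading frames. Peaks were classed by their centre, and 0 ended beyond a chromosome. Overlap, shares and intervals were computed in Python 3.11.15 with numpy 2.4.6, pandas 2.3.3 and scipy 1.17.1, drawn with matplotlib 3.10.9, and tested on simulated data. Sequences were read from the RefSeq copy of R64. Mitochondrial peaks were left out of shares.

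Members, lists and measures were chosen with earlier results of these data known. Genes were named by rule: those altered or assayed in the study, the 10 lowest and 10 highest by kept share with at least 8 nucleosomes (5 and 5 on chromosome XI), the 5 with most new peaks, those at the 5 longest runs, and examples from the gene lists at the highest and lowest share. Of these, 1 gene is not reported here. The 5 genes with most new peaks outside chromosome XI, the runs of A or T and the shifts in the other inputs were added after the data were seen, and *RPP1* was then taken out of the ribosomal protein list, where a name pattern had put it by mistake. Alternatives were an overlap of 50%, centres within 73 bp, no peaks under 50 bp, no chromosome XI, only nucleosomes also in the *pGAL-3Flag-CSE4* input, only *3Flag-CSE4* peaks of at least the median width, windows of 250 bp, protein-coding genes only, and other distances.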

Additional observations from a re-analysis of the deposited data

How the results depend on the processing

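Of 51 recomputed values, 19 stayed within the interval of the reported one, 31 moved beyond it and 1 reversed. No paired analysis was possible because each strain had 1 input library. Among the nuclear chromosomes the kept share of 69.5% was 63.3% with 50% overlap, 65.5% by centres, 67.5% without peaks under 50 bp, 67.7% without chromosome XI, 76.2% for nucleosomes also in the *pGAL-3Flag-CSE4* input and 82.0% for wider *3Flag-CSE4* peaks. The new share of 10.4% was 13.4%, 16.3%, 11.04% and 9.29% under the first 4 of these. The shifted share of 4.88% was 1.65% with 50% overlap, 5.35% by centres and 6.66% for wider peaks. Promoters exceeded interiors by 32.7 points on all chromosomes, and by 39.2, 37.2, 34.6, 34.8, 25.5 and 29.8 points in the same order of 6, and by 27.8 with windows of 250 bp. For 3′ ends the 33.2 points were 38.2 with 50% overlap, 35.8 by centres, 35.2 without chromosome XI, 25.8 for nucleosomes in the *pGAL-3Flag-CSE4* input, 28.8 for wider peaks and 26.1 with 250 bp. The excess of chromosome XI, 31.9 points, was 37.7 with 50% overlap, 34.1 without narrow peaks, 25.2 for nucleosomes in the *pGAL-3Flag-CSE4* input and 19.1 for wider peaks, and reversed to -4.43 by centres, where a wide peak counts once. Chromosome ends differed by 0.75 points, with an interval that includes 0, and by -3.16 points (-6.12 to -0.28) by centres, where the cause was not tested. The difference near centromeres, 5.77 points, stayed within its interval under its 7 alternatives. A stricter peak height could not be applied, and depth, which the lists do not give, limits what a missing peak means.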

Other observations

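On the mitochondrial genome, which was left out above, the input lists held 12 peaks in *psh1Δ 3Flag-CSE4* and 169 in *3Flag-CSE4*. The *psh1Δ pGAL-3Flag-CSE4* input held 6 and the *pGAL-3Flag-CSE4* input 160, so both *psh1Δ* lists were short there. Mitochondrial DNA is not packed into nucleosomes.

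Spacing between neighbouring nuclear peak centres had a median of 195 bp in *psh1Δ 3Flag-CSE4* and 185 bp in *3Flag-CSE4*, with a lower quartile of 170 bp in both lists. The 95th percentile was 1205 bp against 750 bp. A neighbour lay within 220 bp in 56.04% of cases against 65.9%.

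Of the 66 Cse4 ChIP peaks in *psh1Δ 3Flag-CSE4*, 47 were overlapped by an input peak of the same strain and 44 by one of *3Flag-CSE4*. Of the 17 Cse4 ChIP peaks in *3Flag-CSE4*, 1 was overlapped by an input peak of *psh1Δ 3Flag-CSE4* and 1 by one of *3Flag-CSE4*.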
